A study of Arabidopsis thaliana with 12 samples.

Results

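The phyb single mutant was compared with its wild type Col-0 in a series of Affymetrix ATH1 arrays of whole Arabidopsis thaliana seedlings. The arrays were chosen by their genotype label, 3 labelled phyb and 3 labelled Col-0, which makes 6 of the 12 arrays in the series. phyb seedlings carry a mutation in PHYB, the gene of phytochrome B, and an intact SCO3 gene, and Col-0 seedlings carry neither mutation. The other arrays are 3 of the double mutant sco3phyb and 3 of the single mutant sco3, which lack normal SCO3, a gene needed for chloroplast development in cotyledons. All seedlings were 4 days old, grown on Murashige and Skoog agar in days of 16 h light and 8 h dark, and the labels call the arrays of a genotype biological replicates. The labels name no allele and no other agent, so what remains of phytochrome B in the phyb line cannot be read from them.

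Phytochrome B is a photoreceptor that is switched on by red light and off by far-red light. In its active state it enters the nucleus and removes transcription factors of the PIF family, which promote elongation of the hypocotyl and petioles. Loss of phytochrome B is known for long hypocotyls, pale leaves and a growth habit like that of plants in the shade.

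Values are log2 signals after robust multi-array averaging (RMA), a method that corrects background, normalizes arrays to each other and summarises the probes of a probe set. A log2 difference of 1 is a 2-fold change, and a difference is always phyb minus Col-0 unless another contrast is named. A probe set was called at a Benjamini-Hochberg adjusted p under 0.05 in limma, fitted to all 12 arrays. Errors of differences are moderated standard errors of that fit with 3 arrays per genotype. The arrays give no detection call, and the lowest of the arrays' lower quartiles of signal was 2.62, so values near or below it do not show that a gene was expressed, and a difference from such a value has no settled size. Col-0 replicate 3 stood apart: its mean correlation with the other Col-0 arrays was 0.978, against 0.986 for both of the others. Median signal was 0.15 higher on the phyb arrays than on the Col-0 arrays, while the median of the differences of single probe sets was -0.06. PHYB and SCO3 transcripts were not analysed here. Of the fixed tissue markers, the root hair genes EXPA7 and EXPA18, the root gene PYK10, the guard cell gene FMA, the trichome gene TRY and the seed genes OLEO3 and PAP85 were measured, and those of green tissue, xylem, phloem and pollen were not analysed here. RCA, Rubisco activase, a gene of green tissue outside the fixed markers, read 13.09, 13.06 and 13.05 in phyb and 12.98, 12.99 and 12.89 in Col-0. These signals are near the top of the scale, and some antenna genes and most plastid genes fell, as given below. The amount of green tissue was not tested. Whole seedlings were used, so fewer cells of a type and less RNA per cell cannot be told apart.

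A call was made between phyb and Col-0 for 7606 of 22746 probe sets (33.4%): 3996 (17.6%) had more signal in phyb and 3610 (15.9%) had less. With each array centred on its median, the share of higher calls was 30.9%, against 52.5% as deposited, so directions of small changes depend on the scaling. Changes of at least 2-fold were called for 1265 probe sets higher and 729 lower (8.77% of all), and changes of at least 8-fold for 55 and 28. The median called rise was 0.76 and the median called fall was -0.62. Of the 13356 genes with a name, read from 1 probe set each, 4097 were called (30.7%), 2035 higher (15.2%) and 2062 lower (15.4%), around a median difference of -0.08, and these shares are the background for every gene list. In 45.8% of all probe sets the 3 phyb and 3 Col-0 values did not overlap, called or not. Calls were scarce among dim probe sets: 6.46% of the dimmest 4550 probe sets were called, against 48.8% of the brightest 4549. Of the 600 measured genes nearest to PHYB on chromosome 2, 76 rose and 74 fell, and 30.8% of the other nuclear genes were called.

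**Figure D1:**
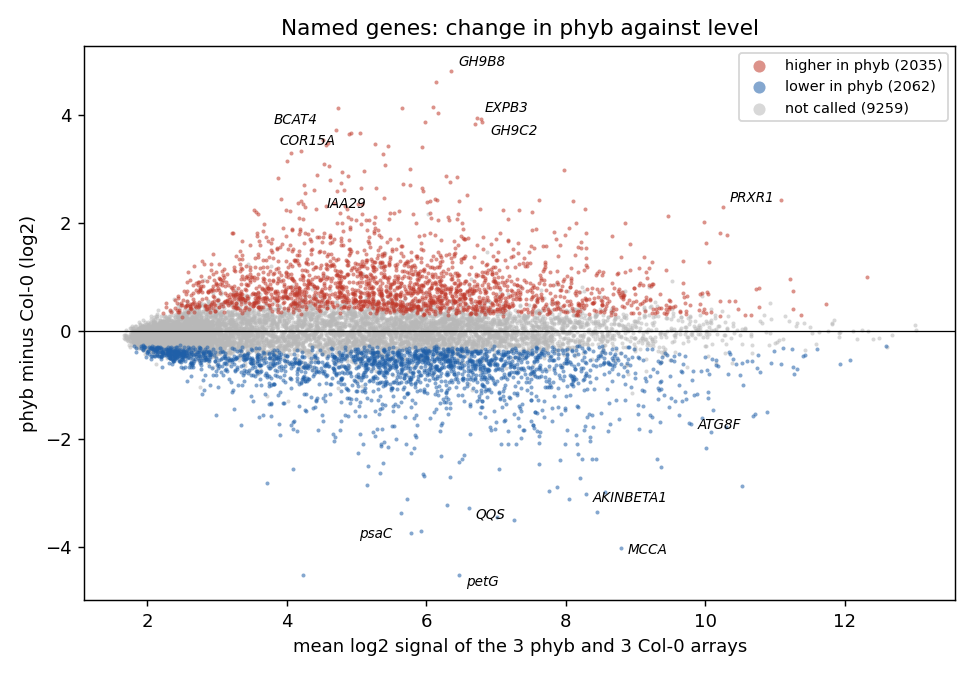
Difference between phyb and Col-0 (log2, vertical) against mean log2 signal of the 6 arrays (horizontal) for the 13356 named genes, 1 point per gene, red where called higher in phyb (2035), blue where called lower (2062) and grey where not called (9259). GH9B8 lies at the top with a difference of 4.81, and petG at the bottom with -4.52.

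Among probe sets assigned to a single gene, the largest rise was in the gene of a cell wall enzyme. GH9B8 (AT2G32990), an endoglucanase of glycosyl hydrolase family 9, had log2 signals of 8.86, 8.64 and 8.77 in phyb and 4.20, 3.86 and 3.80 in Col-0. Every phyb array was far above every Col-0 array, a rise of 4.81 ± 0.18 or 28.0-fold (adjusted p = 7.34e-09, limma). GH9C2 (AT1G64390), of the same enzyme family, read 8.85, 8.56 and 8.81 in phyb and 5.21, 5.04 and 4.37 in Col-0, a rise of 3.87 ± 0.19 (adjusted p = 3.71e-08, limma). Its groups did not overlap either. GH9B7 (AT1G75680) rose by 1.16 ± 0.12, COB, a membrane-anchored protein that orients cellulose deposition, by 0.87 ± 0.12, and CSLC5, of the family that makes the xyloglucan backbone, by 1.07 ± 0.16. Of 24 measured cellulose synthase-like genes and cellulases 7 rose and 2 fell (37.5% called), around a median of -0.04. The count of falls was 7 with each array centred.

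Expansins, proteins that let wall polymers slip past each other, moved in both directions. Of 19 measured members 6 rose and 4 fell (52.6% called, median 0.12), and 2 fell without Col-0 replicate 2 or without phyb replicate 3. EXPB3 (AT4G28250) read 8.54, 8.66 and 8.90 in phyb against 5.26, 5.27 and 3.76 in Col-0, a rise of 3.94 ± 0.33 (adjusted p = 2.30e-06, limma). All phyb values were higher, and Col-0 replicate 3 was the lowest array. EXLB1 (AT4G17030) read 7.50, 7.56 and 7.85 in phyb against 4.56, 4.09 and 4.09 in Col-0 and rose by 3.39 ± 0.18 (adjusted p = 7.08e-08, limma), with no overlap. EXPB1 rose by 2.35 ± 0.17 and EXPA8 by 1.99 ± 0.22. EXPA16 (AT3G55500) went the other way, at 2.76, 3.85 and 2.96 in phyb and 4.72, 5.06 and 5.22 in Col-0, a fall of 1.81 ± 0.26 (adjusted p = 1.88e-04, limma). The root hair expansins EXPA7 and EXPA18 differed by 0.34 ± 0.37 and 0.65 ± 0.38 and were not called. Both were highest of all 6 arrays in Col-0 replicate 3, and without that array both were called (adjusted p = 0.0198 and 0.00306, limma). The root marker PYK10, a beta-glucosidase, read between 11.79 and 12.01 in phyb and between 11.54 and 11.93 in Col-0.

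Xyloglucan endotransglucosylases cut and rejoin the xyloglucan tethers between cellulose fibres. Of 10 measured, 3 rose and 2 fell (50.0% called, median 0.07), and 1 fell without phyb replicate 1, when XTH21 was not called. XTH32 (AT2G36870) read 9.43, 9.39 and 9.38 in phyb against 7.69, 7.38 and 6.39 in Col-0, a rise of 2.25 ± 0.24 (adjusted p = 1.65e-05, limma). The phyb arrays were nearly equal and the Col-0 arrays spread, without overlap. XTH20 rose by 1.42 ± 0.15, while EXGT-A3 fell by 1.06 ± 0.13. XTH26, picked out after its values were seen, read 6.02, 6.29 and 6.10 in phyb and 3.37, 4.31 and 6.40 in Col-0. Here Col-0 replicate 3 lay above all phyb arrays, and the difference of 1.44 ± 0.58 was not called, or called at 2.30 without that array. Of 6 measured genes for pectin enzymes and wall glycoproteins 4 rose, all pectin methylesterases, and none fell, also at an unadjusted p under 0.05 (66.7% called, median 0.98, limma). The pectin methylesterase ATPMEPCRD (AT2G43050) read 8.05, 6.95 and 6.78 in phyb against 4.61, 4.32 and 4.91 in Col-0 and rose by 2.64 ± 0.27 (adjusted p = 1.28e-05, limma). PME61, another member of that enzyme family, rose by 1.14 ± 0.28, and by 0.72 without phyb replicate 1. The TBL family of polysaccharide acetylation proteins had 6 rises and 4 falls among 23 members (43.5% called, median 0.11), with TBL26 rising by 1.73 ± 0.16.

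Of 9 measured tubulin and actin genes 5 rose and 1 fell (66.7% called, median 0.67). The beta-tubulin TUB9 (AT4G20890) read 8.65, 8.56 and 8.77 in phyb against 7.44, 7.51 and 7.53 in Col-0 and rose by 1.17 ± 0.10 (adjusted p = 2.08e-06, limma). Spread within each genotype was small and the groups were well apart. The alpha-tubulin TUA6 rose by 1.12 ± 0.15. TUA1, named after its values were seen, was the member called lower, by 0.53 ± 0.15. Its call was lost without Col-0 replicate 1 or phyb replicate 3, and with only the phyb and Col-0 arrays fitted. Tubulins are alike in sequence, and how far their probe sets read each other was not tested. IQD23 and IQD30, of a family of calmodulin-binding proteins found on microtubules, rose by 1.52 ± 0.16 and 1.21 ± 0.12, among 3 rises and 1 fall in 15 members (26.7% called, median 0.09), with 3 falls without Col-0 replicate 3 and after centring. PRL (AT4G02060), which encodes the DNA replication factor MCM7, rose by 1.73 ± 0.13. Only 6 cell cycle and histone genes were measured, and 2 of them rose and 1 fell, or 1 and 2 after centring.

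**Figure D2:**
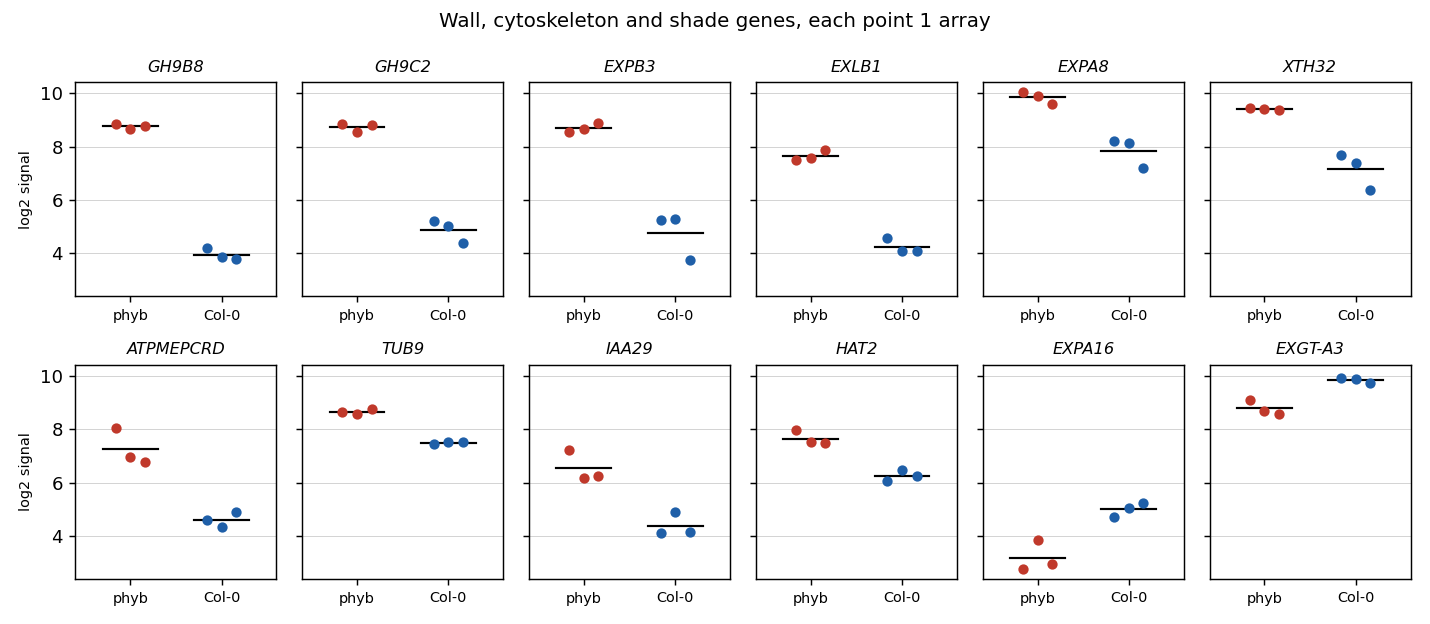
Log2 signal on each phyb array (red, left) and each Col-0 array (blue, right) for 12 wall, cytoskeleton and shade genes, with replicates 1 to 3 drawn from left to right and a black line at the group mean. The groups do not overlap in any panel, 10 genes are higher in phyb, and EXPA16 and EXGT-A3 are lower.

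Among genes that shade is known to induce, 3 of 7 measured members rose and none fell, also at an unadjusted p under 0.05 (42.9% called, median 0.11, limma). IAA29 (AT4G32280), an auxin-responsive repressor of the Aux/IAA family, read 7.24, 6.19 and 6.26 in phyb and 4.12, 4.89 and 4.16 in Col-0. The lowest phyb array lay above the highest Col-0 array, a rise of 2.17 ± 0.31 (adjusted p = 1.57e-04, limma). HAT2 (AT5G47370), a homeodomain factor of the shade response, read 7.96, 7.51 and 7.48 in phyb and 6.05, 6.49 and 6.26 in Col-0 and rose by 1.38 ± 0.20 (adjusted p = 1.71e-04, limma). Of 17 auxin signalling and metabolism genes 2 rose and 1 fell (17.6% called, median -0.03), or 4 and 2 without Col-0 replicate 3, and 2 fell without Col-0 replicate 1. The rise of IAA29 is counted in both this list and the shade list. GH3.3, which conjugates auxin to amino acids, rose by 1.16 ± 0.19, and IAA18 fell by 0.89 ± 0.16. Of 10 receptors and regulators of cell growth 3 rose and 4 fell (70.0% called, median -0.34), among them WAG2, a kinase that acts on auxin carriers, with a rise of 1.77 ± 0.12, and EXO, with a fall of 1.19 ± 0.24.

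Of 11 measured light-signalling genes 2 rose and 1 fell (27.3% called, median 0.17). MYC4, a basic helix-loop-helix factor of jasmonate signalling, read 4.97, 4.46 and 4.32 in phyb and 3.46, 3.13 and 4.02 in Col-0, a rise of 1.05 ± 0.27 (adjusted p = 0.00861, limma). FHL, which carries phytochrome A into the nucleus, read 4.54, 3.58 and 3.74 in phyb and 3.09, 2.84 and 3.10 in Col-0, a rise of 0.95 ± 0.23 (adjusted p = 0.00699, limma). In both genes phyb replicate 1 was the highest array and the groups did not overlap. LIP1, a small GTPase that modulates light input to the clock, fell by 0.36 ± 0.11 (adjusted p = 0.0231, limma). Its adjusted p was 0.0700 and 0.0570 without Col-0 replicates 2 and 3, and 0.0879 and 0.0547 without phyb replicates 2 and 3 (limma). With only the phyb and Col-0 arrays fitted, the adjusted p of LIP1 was 0.0521 (limma). The other members were not called. Their differences were 0.53 ± 0.20 for AFR, 0.36 ± 0.15 for CSN5B, 0.36 ± 0.23 for HYH, 0.17 for SHB1, -0.03 for CUL4, -0.10 for MYC3, -0.11 for SPT and -0.16 for SIZ1. Without Col-0 replicate 1, AFR and HYH were called higher at 0.66 and 0.62, and CSN5B was called at 0.50 without phyb replicate 1. AFR was also called without sco3phyb replicate 1, with only the phyb and Col-0 arrays fitted, and, narrowly, once the dimmest probe sets were dropped. CSN5B was also called with array weights (adjusted p = 0.0350, limma). The clock genes COR27 and GI rose by 1.67 ± 0.24 and 1.05 ± 0.29, 2 of 4 members. The adjusted p of GI, 0.0143 in limma, was 0.0575 without Col-0 replicate 1 and 0.0508 and 0.0532 without phyb replicates 2 and 3.

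Signals of most plastid genes were lower in phyb. How far these signals follow the amount of plastid RNA was not tested. Of 69 measured plastid genes 44 fell and none rose (63.8% called, limma), around a median of -0.70, and 1 was higher at an unadjusted p under 0.05. Falls of at least 2-fold were called for 26, against 2.88% of all named genes. In 43 of the 44 no phyb array reached a Col-0 array, against 45.8% of all probe sets without overlap in either direction. The 44 were picked as called on these same arrays, which favours such separation. Among nuclear genes 30.5% were called, around a median of -0.08, and of 15 mitochondrial genes 2 rose and 4 fell. The mitochondrial falls were 9 after centring, 2 without Col-0 replicate 2 or 3 or phyb replicate 2, and 1 without phyb replicate 1 or 3. The photosystem genes had 18 falls among 20 members (median -0.87), the genes of the cytochrome b6f complex, ATP synthase and Rubisco 7 among 13 (median -1.0), the NDH complex 6 among 10 (median -0.55) and the ribosome, gene expression and remaining genes 13 among 26 (median -0.62). In the cytochrome b6f, ATP synthase and Rubisco list 2 genes were called higher without Col-0 replicate 1. The NDH count was 3 when Col-0 replicate 1 or 2 or phyb replicate 2 or 3 was left out. On average over each of the 4 lists, Col-0 replicate 3 was the lowest Col-0 array and phyb replicate 1 the highest phyb array. For the photosystem list these averages were 9.05, 8.71 and 8.75 in phyb and 10.38, 10.25 and 9.87 in Col-0, which do not overlap.

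The falls of plastid genes differed with the Col-0 level, which itself enters each difference. Of 11 genes with a Col-0 signal below 8, 10 fell (median -1.91), and of 24 genes between 8 and 10, 14 fell (median -1.59). Between 10 and 12, 19 of 29 fell (median -0.60), and of 5 genes above 12, 1 fell (median -0.08). Whether signals near the top of the scale still follow the amount of RNA was not tested. petG (ArthCp041), a small subunit of the cytochrome b6f complex, read 4.61, 3.97 and 4.06 in phyb against 9.20, 8.63 and 8.37 in Col-0. It fell by 4.52 ± 0.29 (adjusted p = 2.68e-07, limma), with phyb and Col-0 wide apart. psaC (ArthCp075), the iron-sulphur subunit of photosystem I, read 4.33, 3.68 and 3.73 in phyb against 7.41, 7.50 and 8.05 in Col-0 and fell by 3.74 ± 0.29 (adjusted p = 1.24e-06, limma). rpl20 (ArthCp045), a ribosomal protein, fell by 2.96 ± 0.32, ndhE by 2.40 ± 0.23 and accD, a subunit of acetyl-CoA carboxylase, by 1.95 ± 0.25.

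Neighbouring plastid genes could differ. In the stretch that holds psbB, psbT, psbN, psbH, petB and petD, all of these but petB fell, a set picked out after its values were seen. psbB, an inner antenna protein of photosystem II, fell by 1.97 ± 0.32, psbT by 2.08 ± 0.16 and psbN by 1.85 ± 0.30. psbH fell by 2.38 ± 0.23 and petD by 2.03 ± 0.31. petB, cytochrome b6, read 11.79, 11.67 and 11.82 in phyb and 11.98, 11.92 and 11.39 in Col-0, groups that overlap, with a difference of under 0.01 in size. Likewise psaA of the photosystem I core fell by 2.09 ± 0.45, reading 4.99, 4.33 and 4.68 in phyb against 7.55, 7.42 and 5.30 in Col-0, where Col-0 replicate 3 was near the phyb arrays. Its neighbour psaB differed by 0.01 ± 0.15 at a signal near 12 on every array. The ATP synthase genes atpB and atpE, also near the top of the scale, differed by -0.08 ± 0.09 and 0.01 ± 0.09. psbA, the D1 protein of photosystem II, fell by 1.53 ± 0.25 at a Col-0 mean of 11.48 ± 0.03 (SD, n = 3), and rbcL, the large Rubisco subunit, differed by -0.60 ± 0.26 without a call. Without Col-0 replicate 3 rbcL was called lower at -0.94, and it was also called with array weights, at -0.87, and after centring, at -0.74. atpH, also of the ATP synthase, differed by 0.65 ± 0.24 without a call (adjusted p = 0.0523, limma). It was called higher with only the phyb and Col-0 arrays fitted (adjusted p = 0.0467, limma), after a further quantile normalization, with the dimmest probe sets left out, and without Col-0 replicate 1, sco3 replicate 1 or 2 or sco3phyb replicate 1 or 2.

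**Figure D3:**
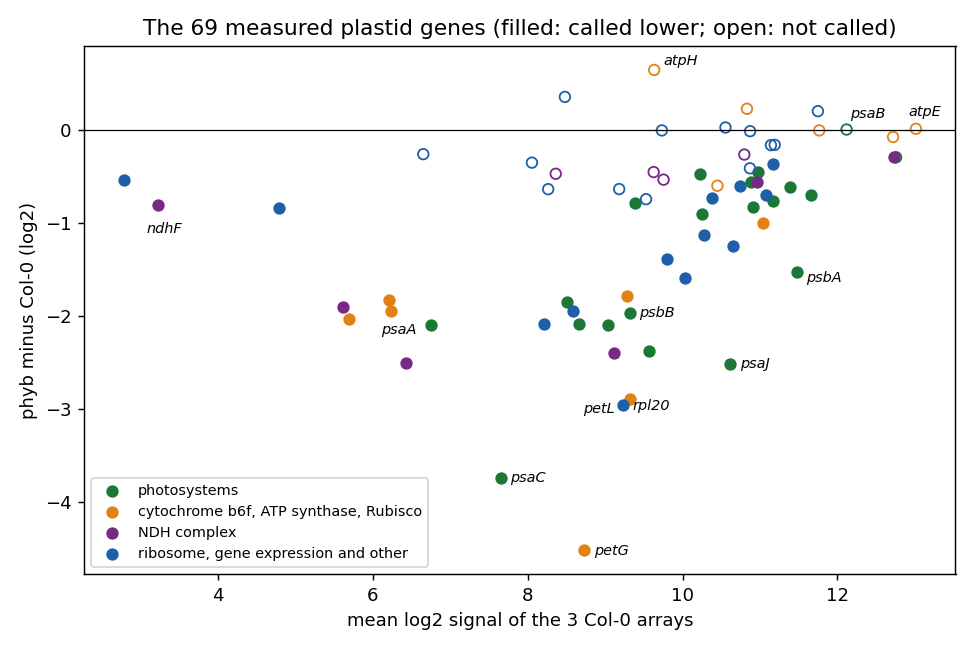
Difference between phyb and Col-0 (log2, vertical) against mean log2 signal of the 3 Col-0 arrays (horizontal) for the 69 measured plastid genes, coloured by complex, filled where called lower (44) and open where not called. petG and psaC lie lowest, and the 5 genes with a Col-0 signal above 12 lie between -0.29 and 0.01.

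Nuclear genes of the chloroplast did not follow one direction. Of 10 tetrapyrrole and chlorophyll synthesis genes 5 fell and 2 rose (70.0% called, median -0.53), and 3 fell without Col-0 replicate 1 or 2. CHLM, a methyltransferase of chlorophyll synthesis, fell by 0.60 ± 0.13, HEMA2, a glutamyl-tRNA reductase, by 0.60 ± 0.10 and HEMB1, a porphobilinogen synthase, by 0.59 ± 0.15. PORB (AT4G27440), the light-dependent protochlorophyllide reductase, read 8.62, 9.13 and 9.09 in phyb and 7.65, 8.27 and 7.81 in Col-0 and rose by 1.03 ± 0.25 (adjusted p = 0.00673, limma). The lowest phyb array stood above the highest Col-0 array. GSA1, an earlier enzyme of the pathway, rose by 0.60 ± 0.15. LHCB4.2, a minor antenna protein, fell by 0.62 ± 0.10, and LIL3:2, an antenna-like protein, was the other of 2 falls among 5 antenna genes (median -0.25). Its call was lost when Col-0 replicate 1 or 2, phyb replicate 1, 2 or 3 or sco3phyb replicate 3 was left out, after a further quantile normalization, and with only the phyb and Col-0 arrays fitted. The Calvin cycle genes PRK and RCA differed by 0.07 and 0.11 and were not called.

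Of 42 genes for photosystem and NDH assembly and chloroplast biogenesis 14 rose and 5 fell (45.2% called, median 0.18). These counts lean on Col-0 replicate 3, whose average over the list was 5.86 against 6.36 in both other Col-0 arrays and between 6.40 and 6.50 in phyb. Without that array 12 rose and 12 fell. With each array centred, 10 rose and 8 fell, and 2 or 3 fell without Col-0 replicate 1 or 2 or phyb replicate 2 or 3. Cpn60beta2 (AT3G13470), a subunit of the plastid chaperonin, read 8.71, 8.76 and 9.02 in phyb and 6.86, 6.46 and 5.92 in Col-0, a rise of 2.42 ± 0.19 (adjusted p = 1.26e-06, limma). OTP81, a plastid RNA editing factor, rose by 1.47 ± 0.14 and TAAC, a thylakoid ATP carrier, by 1.32 ± 0.19. SECE1 (AT4G14870), part of the thylakoid protein translocon, read 6.73, 6.65 and 6.72 in phyb and 8.15, 8.30 and 7.71 in Col-0 and fell by 1.35 ± 0.13 (adjusted p = 9.32e-06, limma). The groups overlapped neither for SECE1 nor for Cpn60beta2.

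Amino acid breakdown and autophagy are known to be switched on by darkness and lack of sugar. All 6 measured genes of branched-chain amino acid breakdown and related dark-induced steps fell, around a median of -2.11. MCCA (AT1G03090), a subunit of methylcrotonyl-CoA carboxylase in leucine breakdown, read 7.22, 6.73 and 6.40 in phyb and 10.47, 10.93 and 11.01 in Col-0. That is a fall of 4.02 ± 0.20, with Col-0 16.2-fold above phyb (adjusted p = 4.05e-08, limma). MCCB, the other subunit, read 7.07, 7.04 and 7.07 in phyb and 9.11, 9.45 and 9.70 in Col-0 and fell by 2.36 ± 0.16 (adjusted p = 3.12e-07, limma). In both genes every phyb array was below every Col-0 array. IVD, isovaleryl-CoA dehydrogenase of the same pathway, fell by 2.47 ± 0.16, and ETFQO, which passes its electrons to the respiratory chain, by 1.85 ± 0.17. AT4G33150 fell by 0.82 ± 0.23, and by 0.53 without Col-0 replicate 3, where its signal was highest. Its adjusted p was 0.0570 without phyb replicate 3 and 0.0563 with only the phyb and Col-0 arrays fitted (limma). D2HGDH, a mitochondrial hydroxyglutarate dehydrogenase, fell by 0.33 ± 0.12 (adjusted p = 0.0438, limma). Its call was lost without Col-0 replicate 2 or 3 or phyb replicate 1, 2 or 3, with adjusted p between 0.0807 and 0.122, and also without sco3 replicate 2 or 3 or sco3phyb replicate 3, with array weights, and with only the phyb and Col-0 arrays fitted.

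AKINBETA1 (AT5G21170), a beta subunit of SnRK1, the kinase that senses energy shortage, read 7.10, 6.78 and 6.46 in phyb and 9.56, 9.77 and 10.08 in Col-0 and fell by 3.02 ± 0.17 (adjusted p = 1.02e-07, limma). GAT1_2.1 (AT1G15040), a glutamine amidotransferase, read 5.60, 4.89 and 5.39 in phyb and 8.49, 8.27 and 9.48 in Col-0. It fell by 3.45 ± 0.26 (adjusted p = 1.03e-06, limma), as read from the brighter of its 2 probe sets. The lowest Col-0 array lay well above the highest phyb array in both genes. Of 11 autophagy genes 8 fell and 1 rose (81.8% called, median -0.66). ATG8E (AT2G45170), of the ubiquitin-like proteins that coat autophagosomes, read 7.55, 7.35 and 6.85 in phyb and 9.58, 9.61 and 9.66 in Col-0, a fall of 2.37 ± 0.15 (adjusted p = 1.76e-07, limma). The Col-0 arrays were nearly equal and the phyb arrays all lower. ATG8F fell by 1.72 ± 0.13 and ATG8C by 0.87 ± 0.09. ATG8D, of the same family, rose by 1.07 ± 0.15, at 6.77, 6.78 and 6.70 in phyb and 5.40, 5.59 and 6.06 in Col-0. SDP1, the lipase that starts breakdown of seed oil, read 6.60, 6.70 and 6.67 in phyb and 8.34, 8.60 and 8.28 in Col-0, a fall of 1.75 ± 0.12 without overlap.

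**Figure D4:**
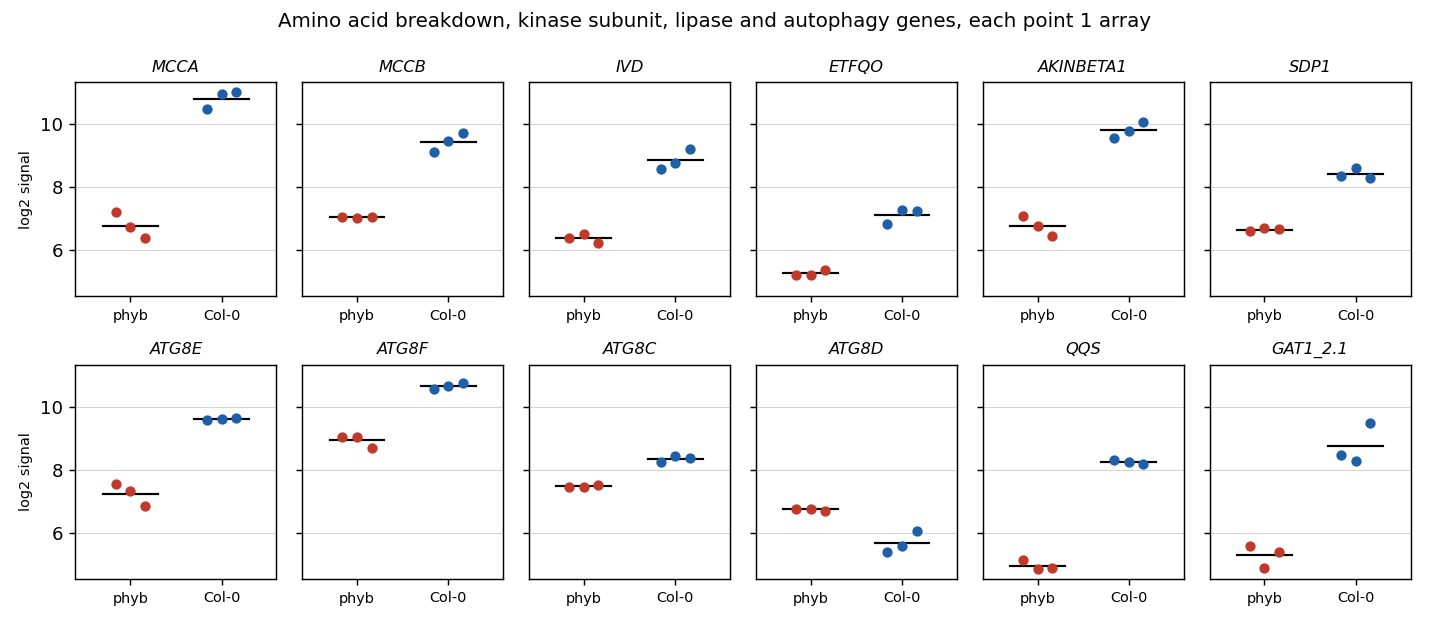
Log2 signal on each phyb array (red, left) and each Col-0 array (blue, right) for 12 genes of amino acid breakdown, energy sensing, lipid breakdown, autophagy and glutamine and starch metabolism, with replicates 1 to 3 drawn from left to right and a black line at the group mean. The groups do not overlap in any panel, and ATG8D is the gene that is higher in phyb.

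Genes of starch and sugar handling had more rises than falls. Of 13 members 6 rose and 1 fell (53.8% called, median 0.35). QQS (AT3G30720), a small protein that lowers starch content, was the fall, at 5.15, 4.86 and 4.89 in phyb and 8.31, 8.24 and 8.19 in Col-0, or 3.28 ± 0.11 (adjusted p = 4.92e-09, limma). The arrays of each genotype lay within a narrow range. APL3 (AT4G39210), a subunit of the enzyme that makes ADP-glucose for starch, read 4.52, 4.74 and 4.72 in phyb and 2.31, 2.79 and 2.41 in Col-0 and rose by 2.16 ± 0.18, a difference from Col-0 values around the lower quartile of signal. ATSPS4F, a sucrose phosphate synthase, rose by 2.39 ± 0.31, and TMT2, a vacuolar sugar carrier, by 1.26 ± 0.14. The glucan phosphorylating enzyme PWD (AT5G26570), needed for starch breakdown, rose by 2.40 ± 0.23. Of 16 SWEET sugar transporters 5 rose and 3 fell (50.0% called, median -0.01), or 3 and 4 without Col-0 replicate 3, 3 and 5 after centring, and 3 rose without Col-0 replicate 1 or phyb replicate 2 or 3. The vacuolar fructose transporter SWEET17 rose by 1.51 ± 0.13 and SWEET2 fell by 1.22 ± 0.22. In the nitrate and peptide transporter family 6 of 12 rose and none fell, also at an unadjusted p under 0.05 (50.0% called, median 0.45, limma), among them GTR1, a glucosinolate importer, by 1.66 ± 0.18.

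Glucosinolates, the mustard oil precursors of this plant family, had 3 rises and no fall among 5 genes, also at an unadjusted p under 0.05 (60.0% called, median 1.15, limma). BCAT4 (AT3G19710), which starts the chain elongation of methionine for glucosinolates, read 6.86, 6.10 and 6.75 in phyb and 2.94, 2.85 and 2.77 in Col-0. The Col-0 values were close to the lower quartile of signal, and the rise was 3.72 ± 0.19 (adjusted p = 5.09e-08, limma). UGT74B1, a glucosyltransferase of glucosinolate synthesis, rose by 1.15 ± 0.14. Flavonoid synthesis had 4 rises among 8 genes (50.0% called, median 1.01). UGT78D1 (AT1G30530), a flavonol rhamnosyltransferase, read 7.56, 7.34 and 7.51 in phyb and 5.94, 5.56 and 5.28 in Col-0, a rise of 1.88 ± 0.16 (adjusted p = 2.22e-06, limma). The flavonoid glucosyltransferase UGT78D2 rose by 1.23 ± 0.15, the chalcone isomerase-like CHIL by 1.59 ± 0.24 and DFR, dihydroflavonol reductase, by 1.59 ± 0.26. The groups did not overlap for any of the 4, and no member fell, also at an unadjusted p under 0.05 (limma), while 1 was called lower after centring.

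Defensins and other defence genes had 5 rises and 2 falls among 18 members (38.9% called, median 0.16), with 5 falls after centring and 1 when phyb replicate 1, 2 or 3 was left out. The plant defensin LCR69 (AT2G02100) read 10.16, 10.76 and 10.68 in phyb and 8.46, 8.58 and 8.19 in Col-0 and rose by 2.12 ± 0.16 (adjusted p = 8.36e-07, limma). Its relatives LCR68 and LCR67 rose by 1.29 ± 0.14 and 1.89 ± 0.37, and how far probe sets of related defensins read each other was not tested. WRKY22 (AT4G01250), a factor of the immune response, read 3.45, 3.05 and 3.05 in phyb and 4.85, 5.14 and 4.79 in Col-0 and fell by 1.74 ± 0.15. The peroxidase PRXR1 (AT4G21960) was among the brightest genes that rose, at 11.47, 11.26 and 11.45 in phyb and 9.06, 9.18 and 9.09 in Col-0, a rise of 2.29 ± 0.12 (adjusted p = 5.09e-08, limma). GSTU20, a glutathione transferase, rose by 2.25 ± 0.36. The serine carboxypeptidase-like family had 8 rises and no fall among 29 (27.6% called, median -0.02, limma), with 3 falls at an unadjusted p under 0.05, 4 falls without Col-0 replicate 3, 2 without phyb replicate 3 and 6 after centring. Its member scpl35 rose by 1.66 ± 0.11.

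Of 18 cold, abscisic acid and seed maturation genes 9 rose and 1 fell (55.6% called, median 0.70), and 5 rose without phyb replicate 2 or phyb replicate 3, 12 rose and 2 fell without Col-0 replicate 3, and 2 fell after centring. COR15A (AT2G42540), which protects chloroplasts from freezing, read 4.55, 7.79 and 7.79 in phyb and 3.02, 3.01 and 3.18 in Col-0, a rise of 3.64 ± 0.62 (adjusted p = 6.16e-04, limma). phyb replicate 1 stood between the Col-0 arrays and the other phyb arrays. The same order held for its close relative COR15B, at 4.57, 6.53 and 6.96 in phyb and 3.11, 3.39 and 3.16 in Col-0, and for the seed maturation gene M17, at 4.09, 6.05 and 5.75 in phyb and 2.49, 2.44 and 2.49 in Col-0. The Col-0 values of M17 were below the lower quartile of signal, so the size of its rise is not settled. The seed storage protein PAP85 read 4.09, 5.82 and 6.31 in phyb and 2.27, 3.73 and 3.17 in Col-0 and rose by 2.35 ± 0.51. OLEO3, the other measured seed marker, an oil body protein, read 3.15, 3.66 and 3.71 in phyb and 3.24, 3.05 and 3.50 in Col-0 and was not called. The averages of these 2 seed markers were 3.62, 4.74 and 5.01 in phyb and 2.76, 3.39 and 3.33 in Col-0. Their part in the rises of this list was not tested. In the sugar transporter SAG29, phyb replicate 1 at 3.65 was within the Col-0 range of 3.51 to 3.94, while the other phyb arrays both read 6.96. Its rise of 2.19 was 3.29 without phyb replicate 1 and was not called when any other phyb or Col-0 array was left out. Nor was SAG29 called with only the phyb and Col-0 arrays fitted. Col-0 was uneven elsewhere: LEA18, of the embryo protective proteins, read 7.07, 7.71 and 7.99 in phyb and 4.76, 5.37 and 8.28 in Col-0, and OSM34, an osmotin, 6.87, 7.17 and 7.25 in phyb and 8.53, 7.88 and 10.38 in Col-0. Without Col-0 replicate 3 LEA18 was called at 2.53, and the fall of OSM34 was 1.11 instead of 1.84. Isocitrate lyase (ICL), of the glyoxylate cycle, read 8.87, 9.94 and 10.07 in phyb and 7.96, 8.07 and 9.35 in Col-0 and rose by 1.17 ± 0.37 (adjusted p = 0.0266, limma). Its adjusted p was 0.102 and 0.0941 without Col-0 replicates 1 and 2 and 0.0963 and 0.110 without phyb replicates 2 and 3 (limma). With only the phyb and Col-0 arrays fitted, the adjusted p of ICL was 0.0925 (limma).

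Some of the largest changes were in genes known by a locus code alone. AT4G11190 had the second largest rise among named genes whose groups did not overlap, at 8.65, 8.56 and 8.11 in phyb and 2.76, 3.21 and 5.53 in Col-0, where Col-0 replicate 3 was above its group, a rise of 4.61 ± 0.52 (adjusted p = 2.65e-05, limma). AT3G55920 fell by 4.51 ± 0.12 (adjusted p = 3.61e-10, limma). It read 1.95, 2.04 and 1.97 in phyb, below the lower quartile of signal, and 6.51, 6.36 and 6.62 in Col-0. In sco3phyb and sco3 it averaged 6.54 and 6.42, so phyb was the low one of the 4 genotypes, by an amount that is not settled. AT2G20670 read 6.73, 6.96 and 6.66 in phyb and 10.05, 10.25 and 10.09 in Col-0, a fall of 3.35 ± 0.12 (adjusted p = 6.18e-09, limma). FMA fell by 0.89 ± 0.17 and TRY rose by 0.84 ± 0.24, the single measured marker of guard cells and of trichomes, and TRY was not called without phyb replicate 1 (adjusted p = 0.0635, limma).

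The phyb mutation was also present in sco3phyb, which was set against sco3. The 2 differences share no array, while the estimate of spread in the fit is shared by all 12 arrays. There 6662 probe sets passed the test (29.3%), with more signal in sco3phyb for 3606 (15.9%) and less for 3056 (13.4%). Of the 3996 probe sets higher in phyb, 2336 (58.5%) were higher in sco3phyb too and 41 were lower. Of the 3610 lower in phyb, 1767 (48.9%) were lower in sco3phyb too and 54 were higher. A probe set missing from the second list need not behave differently, and the difference between the contrasts was tested by their interaction. It was called for 1143 probe sets (5.03%), of which 418 were higher in phyb and 407 lower. That count was 761 and 661 without phyb replicates 2 and 3, and 755 and 716 without sco3phyb replicates 2 and 3. PRXR1 rose by 2.29 in phyb and by 2.26 in sco3phyb, and WRKY22 fell by 1.74 and by 1.85. Both IAA29, at 2.17 and 2.34, and HAT2, at 1.38 and 1.73, rose in each background. BCAT4 rose by 3.72 in phyb and differed by 0.53 in sco3phyb (interaction adjusted p = 4.84e-05, limma). UGT78D1 rose by 1.88 in phyb and differed by 0.06 in sco3phyb (interaction adjusted p = 5.29e-04, limma). The other flavonoid genes named above differed by -0.05 for UGT78D2, 0.49 for CHIL and 0.41 for DFR in sco3phyb against sco3, and of these 3 the interaction was called for UGT78D2. IVD fell by 2.47 and 0.56 (interaction adjusted p = 4.95e-04, limma), and ATG8E by 2.37 and 1.27 (interaction adjusted p = 0.00875, limma). QQS fell further in sco3phyb, by 5.12 against 3.28 in phyb (interaction adjusted p = 4.53e-05, limma). Of the 69 plastid genes 36 fell and 4 rose in sco3phyb against sco3, 31 of the falls were shared with phyb, and the interaction was called for 4.

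**Figure D5:**
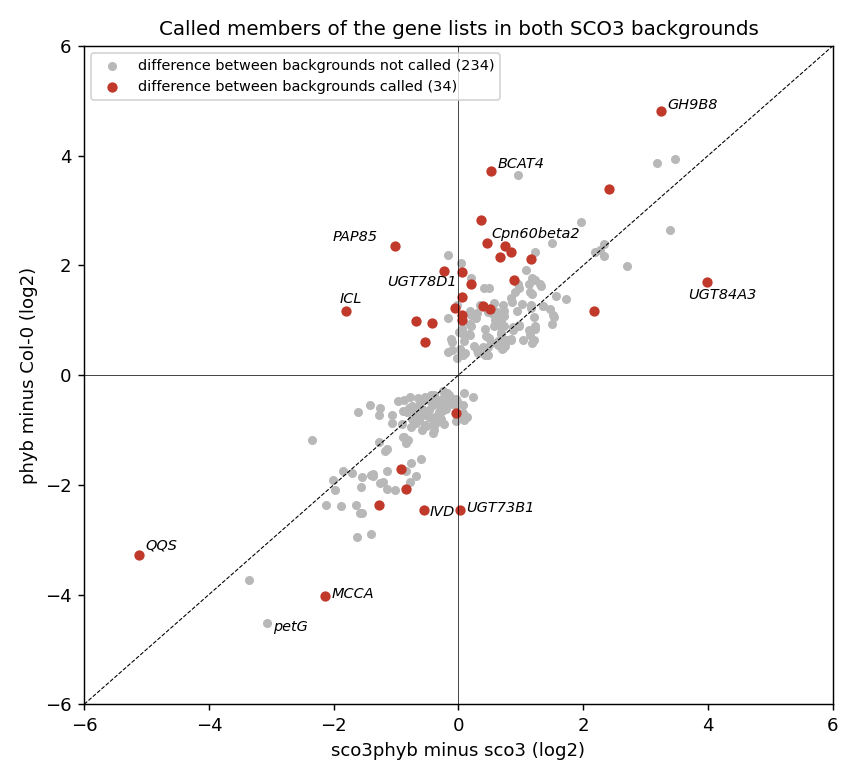
Difference phyb minus Col-0 (log2, vertical) against difference sco3phyb minus sco3 (log2, horizontal) for the list members called in phyb, 1 point per gene, red where the interaction was called (34) and grey where it was not (234). The dashed line marks equal differences, and BCAT4, UGT78D1 and UGT73B1 lie near the vertical zero line.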

How the data were processed

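The values are log2 signals per probe set as the authors deposited them, and the submitters' processing notes name RMA and Partek. Versions and settings of both, and a genome build, were not stated in the sources used. Samples were grouped by genotype label. Of 22810 probe sets 64 controls were left out and 22746 tested with limma 3.58.1 (R 4.3.3, data.table, version 1.17.8), using lmFit and eBayes on all 12 arrays with a mean per genotype and 8 residual degrees of freedom. The p-values are two-sided, with Benjamini-Hochberg adjustment over the probe sets of a contrast, and a call needed an adjusted p under 0.05. They measure the spread between labelled biological replicates, pooled over genotypes, and the number of arrays limits the precision.

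The platform annotation gave a single gene to 13513 probe sets, several to 503 and none to 8730. From these 13356 genes could be named, 11799 of them by locus code alone, each read from the probe set with the highest mean signal, and 13286 were found in the TAIR10.1 gene list for chromosome and neighbours. In 4 of 146 genes with several probe sets, calls were opposite, and in 49 some but not all probe sets were called. A rule chose 216 genes to name: the 20 largest rises and 20 largest falls among called genes without overlap between groups, in every list the called members with the smallest p, at most 5, or the 2 brightest where none was called, and all light-signalling genes. With genes added after their values were seen there were 234: the psa, psb, pet, atp and rbcL genes set beside their neighbours, LEA18, SAG29, OSM34, XTH26, OLEO3, D2HGDH and TUA1. Of 60 lists, 46 had at least 3 measured members. Members, lists and alternatives were chosen with earlier results of these data known. A list is described by counts and its median, with no test of the list.

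The alternatives tried were array quality weights, robust fitting with a mean-variance trend, arrays centred on their medians, quantile normalization on top of RMA, a filter on the dimmest 40% of probe sets, a block for the replicate number, a fit of only the phyb and Col-0 arrays, each array left out in turn, and a call threshold of 0.01. Python 3.11.15, pandas 2.3.3 and matplotlib 3.10.9 made the tables and figures.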

Additional observations from a re-analysis of the deposited data

Results flagged for a closer look

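The interaction term of the 12-array fit was called for 44 of the 234 named genes (adjusted p under 0.05, limma). It sets the difference between sco3phyb and sco3 against that between phyb and Col-0. Whether these lines differ in more than the named mutations was not tested. Over all 13356 named genes the interaction was called for 594. Many of the 234 were picked by their difference between phyb and Col-0, which enters the interaction with a minus sign. That choice favours interaction values of the opposite sign, so the count of 44 and the directions are no independent result. Each value is sco3phyb minus sco3 less phyb minus Col-0 on the log2 scale. The 594 calls among 13356 named genes are the background for the list counts in this section. In the wall lists the interaction was called for 3 of 19 expansins and 3 of 10 xyloglucan endotransglucosylases. Among 24 cellulose genes 1 was called, near that share, and among 6 pectin and glycoprotein genes 0. The interaction was -1.56 for GH9B8, -1.41 for XTH32, -1.37 for XTH20, -1.60 for EXPB1 and -0.98 for EXLB1. In other families it was -0.85 for TBL26 and -0.71 for the microtubule-associated IQD30. FHL, a partner of phytochrome A, had -1.36.

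The interaction was called for 2 of 6 genes of branched-chain amino acid breakdown and related dark-induced steps, at 1.88 for MCCA and 1.91 for IVD. It was also called for 2 of 11 autophagy genes, at 1.1 for ATG8E and 0.80 for ATG8F. AKINBETA1 had 1.28 and GAT1_2.1 had 1.62. QQS had -1.84. Isocitrate lyase, ICL, had -2.98, rising by 1.17 in phyb and falling by 1.81 in sco3phyb against sco3. APL3 of starch synthesis had -1.50, measured against Col-0 values around the lower quartile of signal.

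The glucosinolate gene BCAT4 had -3.19, UGT78D1 had -1.82 and UGT78D2 had -1.28. The seed genes PAP85 and M17 had -3.36 and -2.47, that of M17 measured against Col-0 values below the lower quartile of signal. The defensins LCR69 and LCR67 had -0.96 and -2.12. Among genes of the chloroplast and mitochondrion, Cpn60beta2 had -1.96, GSA1 -1.13, psbT 1.25 and ccb452 1.02. In the enzyme and peptide families, UGT73B1 had 2.48, CYP71B37 -1.02, scpl35 -1.46, BGLU25 -0.96 and RALFL34 -0.87.

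Of genes named by locus code, AT3G55920, below the lower quartile of signal in phyb, had 4.63, AT1G33055 had 2.99, AT2G20670 had 2.40, AT3G15450 had 2.26, AT4G27450 had 2.09, AT5G66650 had 1.37 and AT1G54740 had 1.20, all lower in phyb than in Col-0. AT5G04120 had -2.84, AT1G60590 had -2.63, AT1G73600 had -2.48 and AT2G47880 had -1.82, all higher in phyb than in Col-0.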

How the results depend on the processing

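No call between phyb and Col-0 among the 234 named genes changed its sign under an alternative, and 196 kept their side of the threshold in all of them other than 0.01. Many of these genes were picked as called and without overlap between groups. For such genes leaving out an array cannot turn the sign. The 7606 calls became 5958 to 8276 when each array was left out in turn, and 6198 with the phyb and Col-0 arrays fitted alone, of which 6065 were shared. Centring turned the split to 2979 higher and 6667 lower. At a threshold of 0.01 there were 4965 calls, 2219 of them lower, 4102 in sco3phyb against sco3 and 407 for the interaction. The interaction, 1143 as reported, had 1957 calls with array weights and 661 to 1582 with each array left out, including 761 without phyb replicate 2, 661 without phyb replicate 3, and 755 and 716 without sco3phyb replicates 2 and 3. Deviations of phyb and Col-0 arrays with the same replicate number correlated at 0.15, -0.274 and -0.0786, so the numbers did not pair the arrays. With the replicate block 7408 probe sets were called, 7197 of them shared, with 6410 calls in sco3phyb against sco3 and 1040 for the interaction, and AFR, CSN5B and atpH were called higher (adjusted p = 0.0149, 0.0386 and 0.0254, limma). Dim probe sets near the lower quartile of signal and the small number of arrays limit what can be called.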
